A study of Mus musculus with 10 samples.

Results

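The Schlafen genes are a family that multiplied in rodents and that is named after the German word for sleep. Described here are 7 members, Slfn1, Slfn2, Slfn3, Slfn4, Slfn5, Slfn8 and Slfn9, of 39179 listed genes, in the tibialis anterior, which lifts the foot and consists mostly of fast fibres. The family was selected on these data, because Slfn4 was far higher in tumor-bearing mice, so the difference between the groups is given for its members as a description and not as a test. RNA was sequenced from 6 mice with subcutaneous tumors of Lewis Lung Carcinoma (LLC group), a mouse lung cancer line that causes cachexia, the wasting of muscle and fat in cancer, and from 4 mice injected with PBS (control group). The sample labels give the strain of both groups as C57BL/6J, the age at injection as 10 weeks, and tumor development as 23 days in the LLC group and 0 days in the control group. The description of the series instead gives male C57BL/10 mice, 8 weeks and 22 days, and the conflict could not be settled here. The tumors came from 1 transplanted cell line, each library came from 1 animal, and the LLC mice sequenced were survivors to the end of the experiment.

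Schlafen proteins fall into short forms (Slfn1, Slfn2), intermediate forms (Slfn3, Slfn4) and long forms that carry a helicase-like domain (Slfn5, Slfn8, Slfn9). They are known as interferon-inducible genes of lymphoid and myeloid cells, with roles in the growth, quiescence and maturation of T cells and monocytes and in the defence against viruses. Slfn2 is needed for quiescent T cells and monocytes to survive, Slfn1 restrains the growth of thymocytes, and Slfn4 is known from macrophages and other myeloid cells.

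These 7 members lie in 1 cluster of 263.8 kb at chr11:82951349-83215154 (GRCm38, GENCODE M21). The order along the chromosome was Slfn5, Slfn9, Slfn8, Slfn2, Slfn1, Slfn4 and Slfn3, with Slfn9 and Slfn8 on the minus strand and the other 5 on the plus strand. The longest coding sequences held 337 codons for Slfn1, 378 for Slfn2, 602 for Slfn4, 640 for Slfn3, 884 for Slfn5, and 910 each for Slfn8 and Slfn9. Among these 7, the short and intermediate genes thus lie together at one end of the cluster, and the long genes at the other.

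The bases just upstream of the start sites show how the members that differed between groups compare with those that did not. Each sequence below holds the 250 bases before the RefSeq transcription start (GRCm38.p6), on the gene's own strand. For Slfn5 these bases lie inside the gene as GENCODE M21 places it, which begins at chr11:82951349. The bases before that other start were not searched, so matches for Slfn5 hold for the RefSeq start only. In the first 4, capitals mark the longest run of bases that Slfn1, Slfn2, Slfn3 and Slfn4 had in common. In Slfn5, capitals mark matches to the interferon-stimulated response element (ISRE). They lie at chr11:83174936-83175185 for Slfn4, chr11:83116570-83116819 for Slfn1, chr11:83064862-83065111 for Slfn2, chr11:83191080-83191329 for Slfn3 and chr11:82951852-82952101 for Slfn5, all on the plus strand.
Slfn4: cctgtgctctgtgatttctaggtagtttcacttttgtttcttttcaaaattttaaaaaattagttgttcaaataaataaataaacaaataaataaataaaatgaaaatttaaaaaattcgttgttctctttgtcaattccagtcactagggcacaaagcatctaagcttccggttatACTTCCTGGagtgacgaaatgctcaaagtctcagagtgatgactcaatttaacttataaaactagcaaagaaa
Slfn1: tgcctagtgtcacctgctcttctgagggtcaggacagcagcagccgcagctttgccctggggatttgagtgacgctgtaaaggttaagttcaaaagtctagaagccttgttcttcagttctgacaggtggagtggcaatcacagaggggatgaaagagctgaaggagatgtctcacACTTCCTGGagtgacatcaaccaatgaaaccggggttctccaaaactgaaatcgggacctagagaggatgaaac
Slfn2: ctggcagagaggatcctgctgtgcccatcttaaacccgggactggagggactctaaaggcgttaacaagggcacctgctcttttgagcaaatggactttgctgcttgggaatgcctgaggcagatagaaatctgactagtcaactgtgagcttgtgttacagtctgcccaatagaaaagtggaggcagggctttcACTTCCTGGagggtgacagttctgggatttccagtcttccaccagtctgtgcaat
Slfn3: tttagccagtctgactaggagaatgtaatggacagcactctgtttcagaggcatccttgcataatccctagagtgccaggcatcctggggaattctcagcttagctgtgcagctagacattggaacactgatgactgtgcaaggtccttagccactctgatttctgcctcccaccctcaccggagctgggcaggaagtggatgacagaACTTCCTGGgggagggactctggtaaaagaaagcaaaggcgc
Slfn5: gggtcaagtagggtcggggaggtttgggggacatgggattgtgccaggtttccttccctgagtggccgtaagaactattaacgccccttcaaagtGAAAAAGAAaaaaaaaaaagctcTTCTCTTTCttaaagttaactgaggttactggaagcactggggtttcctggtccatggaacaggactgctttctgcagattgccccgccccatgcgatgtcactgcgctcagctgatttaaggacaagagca

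The shared run ACTTCCTGG, which was picked after the sequences were seen, began at base -73 from the start site in Slfn4, -74 in Slfn1, -55 in Slfn2 and -42 in Slfn3. It occurred on either strand in 0.7% of 32851 RefSeq promoters of the same length. Slfn1 and Slfn4 had the longest stretch in common among these 4 genes, 15 bases. Slfn3, which was not called between the groups, held the run too. The ISRE, searched as GAAANNGAA on both strands, matched in Slfn5 at 2 places and in Slfn8 and Slfn9 at 1 place each, against 7.13% of all promoters. No ISRE match was found in the 250 bases of Slfn1, Slfn2, Slfn3 or Slfn4.

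Among the other motifs, the AP-1 element TGANTCA matched only in Slfn4 among the members, from base -34 to -28, against 6.75% of all promoters. The NF-kB motif matched in Slfn1 and Slfn9, against 7.25%. The C/EBP motif TTGCNNAA matched in Slfn2 and Slfn3, against 9.56%. The PU.1 motif GAGGAAGT, whose letters overlap in part with the shared run when read on the opposite strand, matched in 0 members and in 2.44% of all promoters. The upstream sequence of Slfn4 was also the poorest in G and C, at 29.6%, while the other 6 members lay between 48.0% and 52.0%. Slfn8 and Slfn9, both long members, had 20 bases in common. These matches describe letters in a short window, and binding was not measured.

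Total counts were 16693209 to 21303084 per library. Mitochondrial genes took 28.5% to 30.7% of the counts in the control group and 22.0% to 27.9% in the LLC group. Markers of fast fibres summed to 146342 to 155299 CPM, counts scaled per 1e6 of the library total, in the control group and 104703 to 162471 CPM in the LLC group. Fast-fibre genes were thus abundant in every library. Values below are CPM scaled with edgeR's TMM factors, means are given ± SD over libraries, and fold changes are LLC over control with their standard error (SE) from edgeR. In bulk muscle, fewer cells of a type and less RNA per cell cannot be told apart. A gene was called where its adjusted p was at most 0.05 over all genes tested and its change at least 1.5-fold.

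Of the 7 members, 5 passed the filter on low counts. Slfn1 and Slfn4 passed it only through the LLC libraries, so they had to differ. Slfn8 and Slfn9 did not pass. Slfn4, Slfn1 and Slfn2 were called, all higher in the LLC group, and Slfn3 and Slfn5 were not called. Over the 12690 genes tested, 5.63% were called, 1.65% higher and 3.99% lower. Every LLC value lay above every control value for the same 3 members, against 6.4% of all tested genes. Since the family was chosen for this contrast, nothing is read from these counts.

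**Figure D1:**
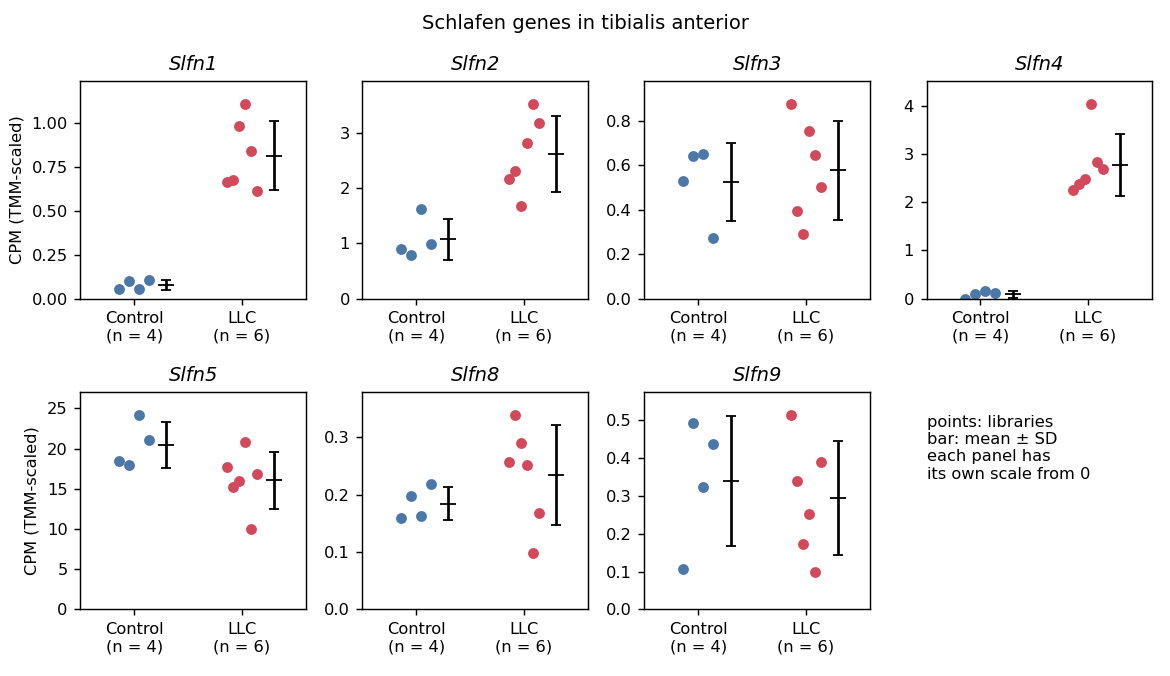
Levels of the 7 Schlafen genes in CPM (vertical axes, each from 0 on its own scale) for 4 control and 6 LLC libraries; each point is a library and each bar the mean ± SD. The groups did not overlap for Slfn1, Slfn2 and Slfn4, and they overlapped for the other 4 members.

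Slfn4, the intermediate member known from myeloid cells, was close to undetected in control muscle. Its counts were 0, 2, 3 and 2 in Control 1 to 4, and 0 counts allow up to 0.159 CPM in Control 1. In LLC 1 to 6 they were 44, 42, 43, 80, 57 and 48. The mean rose from 0.0926 ± 0.0677 CPM (n = 4) to 2.78 ± 0.647 CPM (n = 6), a log2 fold change of 4.82 ± 0.38. The ratio of the pooled counts, scaled for depth, was 30.3, with a 95% interval of 14.5 to 76.0 that covers counting error only. The lowest LLC library, at 2.26 CPM, lay far above the highest control, at 0.162 CPM. LLC 4 was the highest, at 4.03 CPM, and stood apart from the other 5, which lay at 2.26 to 2.83 CPM. The coefficient of variation among LLC libraries was 23.3%, where counting alone would give 13.9%.

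Slfn1, the short member known to restrain thymocyte growth, showed the same arrangement at a lower level. Control libraries had 1, 2, 1 and 2 counts, 0.0530 to 0.110 CPM. LLC libraries had 13, 12, 17, 22, 17 and 11 counts, from 0.615 CPM through a median of 0.760 CPM to 1.11 CPM in LLC 4. The groups were well apart. The mean was 0.0788 ± 0.0296 CPM in the control group and 0.816 ± 0.198 CPM in the LLC group, a log2 fold change of 3.27 ± 0.35. The depth-scaled ratio of pooled counts was 10.4, with a 95% counting interval of 4.58 to 29.0. Among LLC libraries the coefficient of variation of 24.3% was about that of counting alone, 25.6%.

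Slfn2, the short member needed for immune cell quiescence, was already present in control muscle, and its difference was smaller. It measured 0.900, 0.790, 1.62 and 0.986 CPM in Control 1 to 4. In the LLC group it ranged from 1.68 CPM in LLC 3 through a median of 2.57 CPM to 3.52 CPM in LLC 5. The groups only just missed overlapping, at Control 3 and LLC 3. The means were 1.07 ± 0.374 CPM and 2.61 ± 0.687 CPM, a log2 fold change of 1.29 ± 0.26. Slfn2 was no longer called without Control 1 (log2 fold change 1.21), without Control 2 (1.16) or without Control 4 (1.25).

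Slfn5, the long member with a helicase-like domain, was the most abundant and leaned the other way. It measured 18.5, 18.0, 24.2 and 21.1 CPM in Control 1 to 4. In the LLC group it ranged from 9.96 CPM in LLC 5 through a median of 16.4 CPM to 20.8 CPM in LLC 4. Of the 6 LLC libraries, 5 lay below every control library, and LLC 4 lay within the control range. The means were 20.4 ± 2.84 CPM and 16.1 ± 3.55 CPM, a log2 fold change of -0.35 ± 0.17 that was not called. LLC 5 thus had the lowest Slfn5 and the highest Slfn2. The exons of Slfn5 overlap those of the antisense gene Slfn5os over 559 bases, and the methods state a stranded kit and the default settings of HTSeq. Whether those settings hold for the deposited files, which list other identifiers than the methods name, is not known. Slfn5os itself was called in neither direction and had 6 to 17 counts per library, against 201 to 447 for Slfn5.

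The other 3 members were low in both groups, and their ranges overlapped. Slfn3, an intermediate gene next to Slfn4, had 10, 13, 12 and 5 counts in the control libraries and 17, 7, 5, 15, 13 and 9 in the LLC libraries. Its mean was 0.524 ± 0.175 CPM in the control group and 0.577 ± 0.222 CPM in the LLC group, a log2 fold change of 0.15 ± 0.34. At this depth no difference was detectable, with a depth-scaled ratio of pooled counts of 1.11 and a 95% counting interval of 0.741 to 1.70. The long pair was lower still. Slfn8 had 2 to 6 counts per library and a ratio of 1.25 (95% counting interval 0.631 to 2.60). Slfn9 had 2 to 10 counts and a ratio of 0.857 (0.497 to 1.49).

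Related genes outside these 7 were near or at 0. The pseudogene Slfn10-ps had 5 counts in the control group, all in Control 3, and 1 count in the LLC group. Slfn14, a long member known from platelets and red cell precursors, lies just beyond the cluster, past Slfn3, and had 0 counts in all 10 libraries. Slfnl1, a distant relative, had 4 counts in each group.

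Paralogs can take or lose reads that match more than 1 gene. Of the 100-base windows along the transcripts, the length of 1 read, the share found in another gene was 0% for Slfn1, 0.13% for Slfn2 and 0.27% for Slfn4. It was 2.92% for Slfn3, mostly with the pseudogene Gm11427, and 3.38% for Slfn8 and 3.71% for Slfn9, mostly with Slfn10-ps. For Slfn5 it was 6.4%, mostly with Slfn5os. Nearly all windows of the 3 called members were therefore their own.

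**Figure D2:**
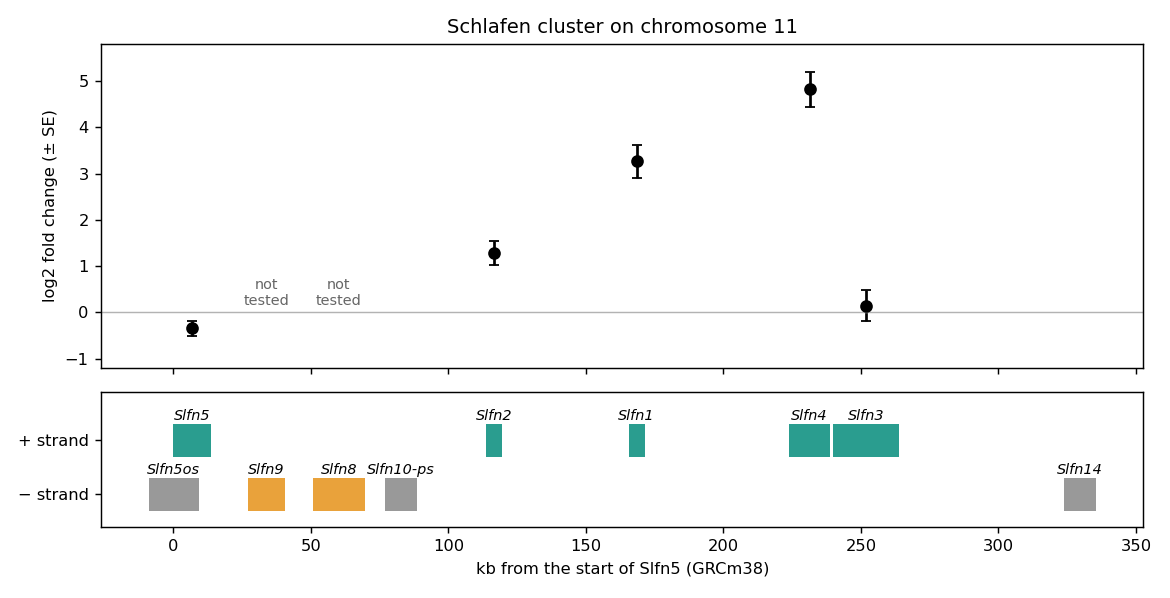
The Schlafen cluster drawn to scale in kb from the start of Slfn5 (horizontal axis), with genes of the plus strand above those of the minus strand, members in colour and other genes in grey. The upper panel gives each tested member's log2 fold change, LLC over control, with its SE; Slfn2, Slfn1 and Slfn4 lay at 1.29, 3.27 and 4.82, while Slfn5 at one end of the family and Slfn3 at the other lay at -0.35 and 0.15.

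The 3 called members are neighbours on the chromosome, between Slfn8, which was not tested, and Slfn3, which was tested and not called. Slfn3 begins directly after Slfn4, on the same strand. Outside the family, 20 of the 29 annotated genes within 100 kb were listed in the files, and 8 of them were tested. With edgeR 0 of the 8 were called, while 4 had an unadjusted p under 0.05, and DESeq2 called 1, Gm11427. That pseudogene was uneven among control libraries, from 0 to 1.22 CPM, and shares windows with Slfn3. Unc45b, the muscle myosin chaperone upstream of Slfn5, measured 280 ± 14.4 CPM in the control group and 309 ± 48.9 CPM in the LLC group. Ap2b1, a clathrin adaptor subunit at the far side, measured 42.3 ± 1.01 CPM and 56.6 ± 18.1 CPM, with each LLC library above every control but a log2 fold change of 0.42 ± 0.19 that was not called.

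Per kilobase of exon, the members could be ranked against each other. In control muscle the level was 3.23 ± 0.449 CPM per kb for Slfn5, 0.646 ± 0.225 for Slfn2 and 0.154 ± 0.0514 for Slfn3. The remaining 4, Slfn9, Slfn8, Slfn1 and Slfn4, lay between 0.0571 and 0.0234 CPM per kb, and each overlapped its neighbour in that order. Slfn5 and Slfn2, and Slfn2 and Slfn3, did not overlap across control libraries, and Slfn3 overlapped narrowly with Slfn9.

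In LLC muscle Slfn5 stayed first, at 2.54 ± 0.562 CPM per kb, and Slfn2 second, at 1.57 ± 0.413, with overlapping ranges. Slfn4 moved from last place to the place after Slfn2, at 0.701 ± 0.163 CPM per kb, and Slfn1 came next, at 0.438 ± 0.106. Slfn2 with Slfn4, and Slfn4 with Slfn1, overlapped only at the edges of their ranges. Slfn3, at 0.169 ± 0.0650 CPM per kb, came after them without overlap, and Slfn8 and Slfn9 were last at 0.0572 and 0.0494.

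The ranges of the family total in CPM overlapped, and those of the shares of the level per kb did not for 4 members. Summed over the 7 members without scaling for length, the level was 22.7 ± 3.26 CPM in the control group and 23.4 ± 4.00 CPM in the LLC group. Slfn5, the longest, made up 89.9% and 68.2% of the family's counts. The sum per kb is another total, and it was not compared between the groups. As a share of the summed level per kb, Slfn5 made up 77.2% ± 2.28 in the control group and 45.9% ± 7.68 in the LLC group. The share of Slfn4 was 0.530% ± 0.359 and 12.6% ± 1.57. The share of Slfn2 was 15.1% ± 2.67 and 28.5% ± 7.59, and that of Slfn1 was 1.04% ± 0.438 and 7.97% ± 1.86. These shares follow from the levels that chose the family and were not tested.

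Schlafen genes are counted among the interferon-stimulated genes, so the rest of that response was measured beside them. Of 40 interferon-stimulated genes, 32 were tested and 2 were called, both lower in the LLC group. Over all 12690 genes tested 5.63% were called, so the number called in this list was near that share. The same share is the one to set beside the calls of the lists below. Ifit3, an antiviral protein, measured 2.60 CPM in the control group and 1.50 CPM in the LLC group (log2 fold change -0.80, edgeR adjusted p = 0.0257). Gbp3, an interferon-induced GTPase, measured 3.46 and 1.85 CPM (-0.90, edgeR adjusted p = 0.0264). The most abundant of the list, Irgm1 and Ifi35, had log2 fold changes of 0.14 and -0.11 and were not called. The list's median log2 fold change was -0.25, against 0.00 over all genes tested. At an unadjusted p under 0.05, 2 were higher and 6 lower, and DESeq2 called 1 higher, Oas3, and 2 lower. The count of 2 depended on single libraries, and was 0 without Control 2, Control 4 or LLC 6, and 1 without Control 1, Control 3 or LLC 5.

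Upstream of these genes, all 9 interferon ligands on the list had 0 counts in every library. Of 18 genes of interferon signalling, the receptors, kinases and transcription factors, 17 were tested and 1 was called. Stat3, which carries signals of the IL-6 and G-CSF receptors as well as of interferons, rose from 39.9 to 66.5 CPM (log2 fold change 0.74, edgeR adjusted p = 0.0128). Jak1 and Jak2, the most abundant kinases, had log2 fold changes of -0.01 and -0.26. Irf5, a factor of inflammatory gene transcription, measured 27.5 CPM in the control group and 9.12 CPM in the LLC group without overlap, but was not called (edgeR adjusted p = 0.0722). The list's median was -0.07.

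Microbial sensing can also induce Schlafen genes in myeloid cells. Of 22 such genes 12 were tested, and edgeR called 0, with 6 higher and 0 lower at an unadjusted p under 0.05, while DESeq2 called Myd88 and Tlr13 higher. Irak1 and Traf6, the most abundant, had log2 fold changes of 0.38 and -0.05, and Tlr2 and Nod2 of 0.86 and 0.81. Of 11 genes of the NF-kB group, all tested, 1 was called. Bcl3, a nuclear partner of NF-kB, rose from 0.747 to 2.25 CPM (log2 fold change 1.59, edgeR adjusted p = 0.0157). Nfkb2 measured 7.30 and 17.2 CPM and was not called (edgeR adjusted p = 0.153). LLC 1, at 51.9 CPM, carried that mean, which was 10.3 CPM without it. The list's median log2 fold change was 0.49, and 5 were higher and 1 lower at an unadjusted p under 0.05.

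Neutrophil markers were far higher in the LLC group. Summed over all 28 markers, the level was 1.53 to 3.56 CPM in the control libraries and 41.4 to 88.2 CPM in the LLC libraries. Of the 28, 14 passed the filter, which a marker near 0 in control muscle could pass only through the LLC libraries, and all 14 were called higher. For such markers the call is no test, because they had to differ. Without the filter edgeR called 20 of 27, and DESeq2 called 18 of the 28. For 13 of the 14 every LLC library lay above every control library, and Mmp9 overlapped. Their median log2 fold change was 4.23, or 4.04 with Clec4d, which had 0 counts in every control library, set to the bound that 3 counts in the control group allow. S100a9, a subunit of the alarmin calprotectin, measured 0.382 CPM in the control group and 21.3 CPM in the LLC group (log2 fold change 5.74). S100a8, the other subunit, measured 0.168 and 14.3 CPM (6.33). Both passed the filter only through the LLC libraries. Ly6g, the defining surface marker, was at 0 in all control libraries and at a mean of 0.139 CPM in the LLC group, and Elane, an enzyme of immature granulocytes, was at 0 in all 10 libraries. The part of these cells in the levels of Slfn4, Slfn1 and Slfn2 was not tested.

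Markers of other white cells went both ways. Of 20 macrophage markers 13 were tested, and 1 was called higher and 2 lower, while DESeq2 called 1 higher and 4 lower, C1qc and Folr2 added. Ly6c2 of inflammatory monocytes was called higher, at 0.0656 and 0.694 CPM. Lyve1 and Mrc1 of resident macrophages were called lower, at 1.06 and 0.175 CPM and at 3.06 and 1.48 CPM. Ly6c2 passed the filter only through the LLC libraries and Lyve1 only through the control libraries, so both had to differ. The summed level was 32.9 to 50.8 CPM in the control group and 27.2 to 47.1 CPM in the LLC group. Of 18 markers of T and NK cells, 2 passed the filter. Cd247 was called lower and Cd28 was not called, and the CD3 chains Cd3d, Cd3e and Cd3g stood at no more than 3 counts in any library.

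**Figure D3:**
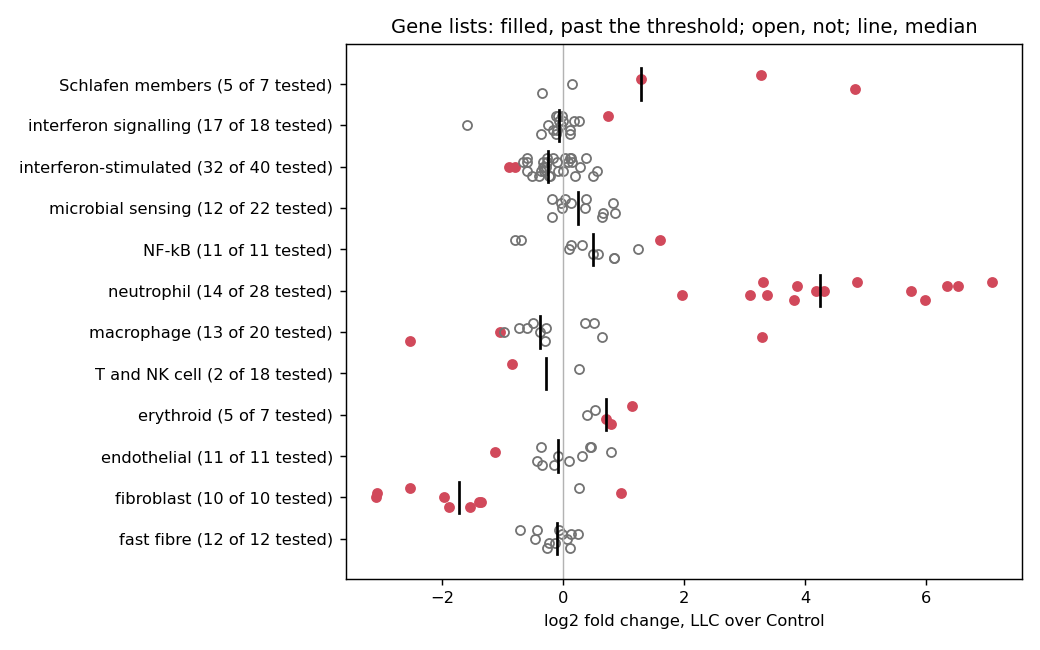
Log2 fold change, LLC over control (horizontal axis), of the tested genes in 12 lists (vertical axis, with the number tested); filled points were called, open points were not, and the line is the list's median. Interferon-stimulated genes centred on -0.25 and neutrophil markers on 4.23, with fitted values shown for markers with few or no control counts.

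The genes most like Slfn4 were sought over all 10 libraries, by the root-mean-square (RMS) difference in log2 CPM after subtraction of the control mean. Because this measure includes the difference between the groups, it is a description. The nearest was Csf3r, the receptor of G-CSF, with an RMS difference of 0.27. It measured 0.0530 to 0.595 CPM in the control group and 3.39 to 7.31 CPM in the LLC group. Next came Ngp, a neutrophil granule protein, at 0.50, and Retnlg, a resistin-like protein of neutrophils, at 0.68. Csf2rb, the common chain of the GM-CSF, IL-3 and IL-5 receptors, followed at 0.87, and Lcn2, a siderophore-binding protein of granules, at 0.92.

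For Slfn2 the nearest 5 genes were closer together and of other kinds. They were Itgb2, the shared chain of the leukocyte integrins, at an RMS difference of 0.24, Litaf, a lysosomal membrane protein induced by lipopolysaccharide, at 0.25, and ENSMUSG00000094114, which has no symbol, at 0.25. Tmem173, which encodes the DNA-sensing adaptor STING, stood at 0.26 and Atp8b1, a phospholipid flippase, at 0.27. Itgb2 measured 0.530 to 0.649 CPM in the control group and 0.869 to 1.93 CPM in the LLC group. Tmem173 measured 2.12 to 3.29 and 4.98 to 8.43 CPM. All 10 of these neighbours in profile had every LLC library above every control library, against 6.4% of all tested genes. They were picked for likeness to Slfn4 and Slfn2, whose groups did not overlap, so nothing is read from this count.

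**Figure D4:**
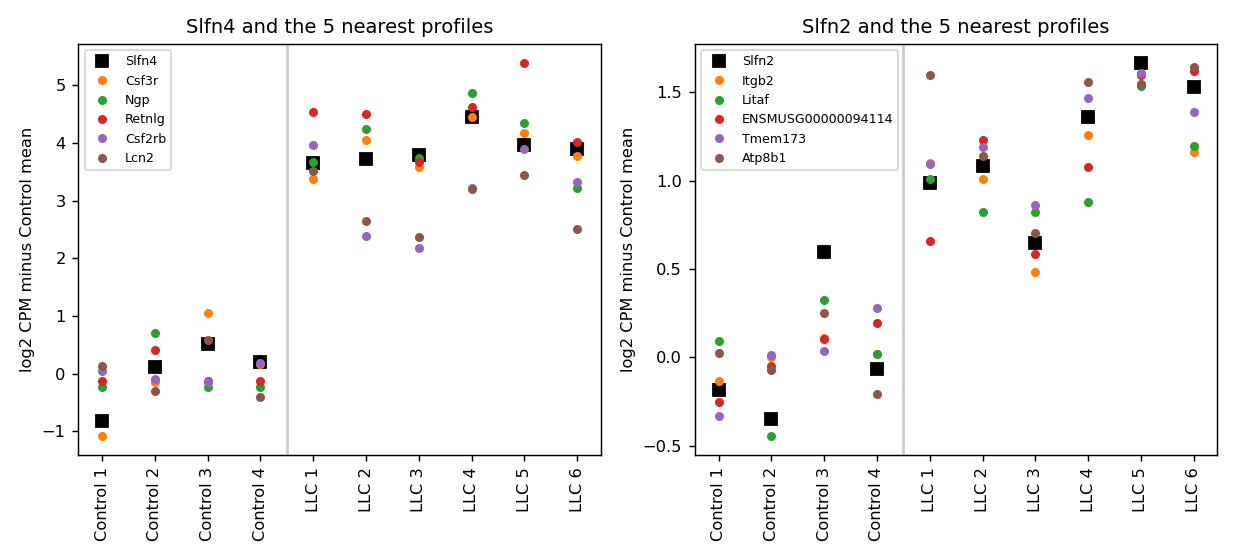
Log2 CPM minus the control mean (vertical axis) in each of the 10 libraries (horizontal axis) for Slfn4 (left) and Slfn2 (right), as squares, and for the 5 genes with the smallest RMS difference to each, as circles. LLC 4 was highest for Slfn4, and LLC 3 was the lowest LLC library for Slfn2.

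Variation among the 6 LLC mice was not used to choose the family and could be tested. The log2 CPM of each of the 5 tested members was related to the mean log2 CPM of the tested neutrophil, macrophage, interferon-stimulated, and T and NK cell genes, 20 relations in all, with exact two-sided permutation tests. The T and NK cell mean rested on only 2 genes. At an unadjusted p of 0.05, 0 relations passed, and the lowest adjusted p was 0.628. With 6 mice the smallest p this test can give is 0.00139 for Pearson's r. For Spearman's rho it is larger, since a full reversal of ranks counts as well, and a single relation by rho could not pass after adjustment.

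By Pearson's r the lowest p was that of Slfn4 with the neutrophil genes, at r = 0.739 (exact permutation p = 0.0639, adjusted p = 0.628) and rho = 0.486 (exact permutation p = 0.356, adjusted p = 0.892). Without LLC 4 and LLC 5, the 2 mice farthest from the median neutrophil level, r was -0.905 over 4 mice. The sign thus depended on those 2 together. The 4 mice spanned little of that level, a mean log2 CPM of 0.685 to 1.03 against 0.685 to 1.75 over all 6. With single mice left out, r was 0.380 to 0.836. By Spearman's rho the lowest p was that of Slfn1 with the T and NK cell genes, at rho = 0.829 (exact permutation p = 0.0583, adjusted p = 0.892) and r = 0.740 (exact permutation p = 0.101, adjusted p = 0.628), with r = 0.275 without LLC 4 and LLC 6. Slfn1 gave r = 0.587 (exact permutation p = 0.231) with the neutrophil genes, and Slfn2 r = 0.498 (exact permutation p = 0.314) with them. Both also changed sign without LLC 4 and LLC 5, to -0.239 and -0.238. Slfn5 gave r = 0.538 with the interferon-stimulated genes (exact permutation p = 0.300) and -0.157 with the neutrophil genes (exact permutation p = 0.793). Slfn4 and the interferon-stimulated genes gave r = 0.430 (exact permutation p = 0.435). With 6 mice, none of the 20 relations passed the threshold.

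**Figure D5:**
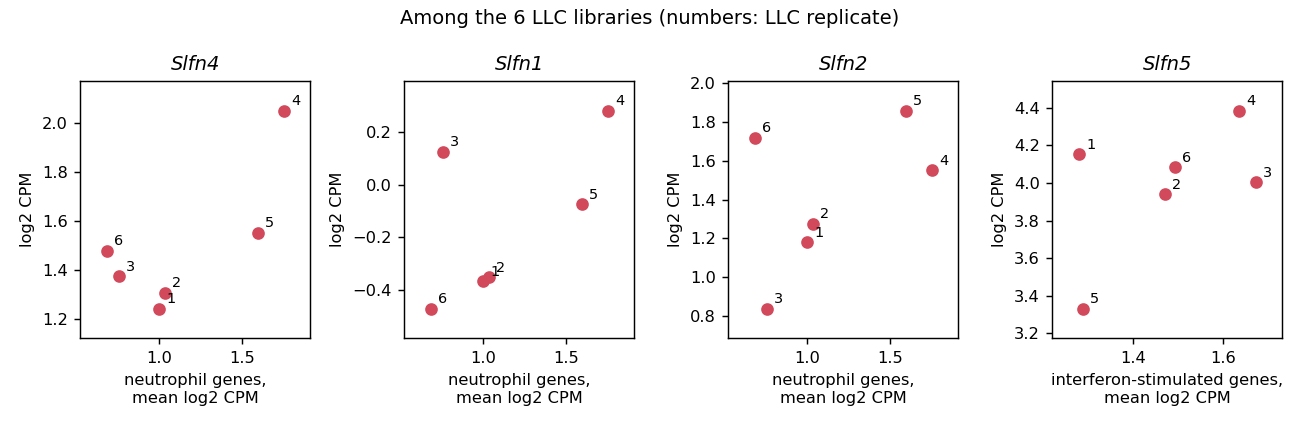
Log2 CPM of Slfn4, Slfn1 and Slfn2 (vertical axes) against the mean log2 CPM of the tested neutrophil genes, and of Slfn5 against that of the interferon-stimulated genes (horizontal axes), in the 6 LLC libraries, numbered by replicate. LLC 4 and LLC 5 lay at the upper end for neutrophil genes, and without them r changed sign for Slfn4, Slfn1 and Slfn2. With any single mouse left out, r stayed positive for Slfn4, Slfn1 and Slfn2.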

How the data were processed

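The deposited values were whole-number read counts per gene, 1 file per library, not normalized. The authors aligned paired-end reads to mm10 with TopHat and counted them with HTSeq; their methods name RefSeq genes, whereas the files list Ensembl identifiers, so the annotation release is not given in the sources used here, and whether the default settings stated for HTSeq, with a stranded kit, apply to these files is not known. All 10 libraries were run in 1 lane. Of 39179 identifiers, 37607 matched a symbol. Low counts were removed with filterByExpr, and LLC and control libraries were compared with the quasi-likelihood test of edgeR 4.0.16 (TMM factors, Benjamini-Hochberg adjustment over all genes tested), in R 4.3.3, after the script had been tested on simulated data. Levels per kb used union exon lengths of GENCODE M21 on GRCm38. Relations within the LLC group used exact permutations of 720 pairings, on log2 CPM with a prior count of 2. Upstream sequences came from RefSeq. The result for 1 further motif is not reported here.

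The members and gene lists were chosen with earlier results of these data known. Named genes were the members, other Schlafen genes, up to 4 genes per list (the 2 most abundant and the 2 with the largest change), the 5 nearest profiles of Slfn4 and Slfn2, and neighbours within 100 kb; Ly6g, Elane, Mrc1, Mmp9, Vwf, C1qc, Folr2, Oas3, Myd88, Tlr13, Cd3d, Cd3e and Cd3g were named after their values were seen. Alternatives were other scaling factors (RLE, upper quartile), mitochondrial genes left out, other filters, robust dispersion, DESeq2 1.42.0, an unadjusted p, a replicate block, each library left out in turn and, for levels per kb, raw totals and the longest transcript. Intervals and the limit of 3 counts cover counting error only, since reads were not marked by molecular identifiers.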

Additional observations from a re-analysis of the deposited data

Results flagged for a closer look

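The level of Slfn4 in LLC 4 lay far from those of the other LLC libraries, at 4.03 CPM against 2.83 CPM in the next highest, by Dixon's test at the 95% level. This was the only such sample among 24 groups of values examined, namely the 7 members, their sum and the means of 4 marker lists in each group of mice, and chance gives about 1 in 20. LLC 4 also had the highest mean level of the neutrophil genes. Without LLC 4 the log2 fold change of Slfn4 was 4.68, against 4.82 with it.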

How the results depend on the processing

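Slfn4 was called under all 19 alternatives, at log2 fold changes of 4.43 to 5.19, and Slfn1 under all 18 that tested it, at 3.13 to 3.44. The family was chosen for this contrast, and both genes passed the main filter only through the LLC libraries, so these counts are no test. Slfn2 was higher under all 19 and called under 15. It was not called without Control 1, 2 or 4 (1.21, 1.16 and 1.25) or with the replicate block (1.08). Slfn5 was lower under all 19 and called under 0, and Slfn3, also never called, changed sign without Control 4, with a range of -0.058 to 0.28 over libraries left out. The number of members called was 2 to 3 with single libraries left out. Interferon-stimulated genes called numbered 2, but 4 at an unadjusted p, 0 with the replicate block and 0 to 3 with single libraries left out; neutrophil markers called numbered 14, and 11 to 16 with single libraries left out, 20 with no filter, 18 by DESeq2, 10 at 1 CPM or more in 4 samples and 11 with the replicate block.

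Over all genes, 715 were called, 1112 by DESeq2, 1572 at an unadjusted p and 415 to 966 with single libraries left out. Replicate numbers are shared by name only: deviations of same-numbered libraries correlated at -0.0814 to 0.126, and 1 of 4 control libraries correlated best with its own number. The replicate block left 112 calls. The cause of these shifts was not tested.

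Of the relations within the LLC group, 0 passed with a prior count of 0.5 or with RLE factors. With 1 mouse left out the smallest p possible was 0.00833, so that a single relation could not pass after adjustment. Slfn1 with the neutrophil genes reached an adjusted p of 0.167 by the exact permutation test without LLC 3 (r = 0.945, and 0.219 to 0.945 over mice left out). Slfn4 and Slfn2 with the neutrophil genes stayed positive with single mice left out (r = 0.380 to 0.836 and 0.284 to 0.894). Signs changed for Slfn4, Slfn1 and Slfn2 with the neutrophil genes when the 2 farthest mice were left out (-0.905, -0.239 and -0.238). In the same way they changed for Slfn3 with the macrophage genes (-0.642) and Slfn4 with the T and NK cell genes (-0.112). Slfn5 with the neutrophil genes changed sign without LLC 5 (-0.889 to 0.807 over mice left out). Slfn4 with the interferon-stimulated genes did so without LLC 4 (-0.0246 to 0.702). Low counts limited the precision for Slfn1 and Slfn4 in the control group, at 6 and 7 counts in all, and for Slfn8 and Slfn9, at no more than 10 counts per library.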

Other observations

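Other cell types of the muscle differed beside the Schlafen genes. Of 10 fibroblast markers, all tested, 8 were called lower and 1 higher. Col1a1 and Col3a1, the fibrillar collagens of the matrix, measured 45.8 and 5.39 CPM and 100 and 11.7 CPM in the control and LLC groups, with log2 fold changes of -3.08 and -3.09. Dcn, a matrix proteoglycan, measured 105 and 41.0 CPM (-1.36). Of 7 erythroid markers 5 were tested and 3 were called higher, among them the beta globin Hbb-bs at 37.6 and 61.4 CPM. The part of blood left in the muscle was not tested.

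Of 11 endothelial markers, all tested, 5 had a positive and 6 a negative log2 fold change, and 4 were higher and 4 lower at an unadjusted p under 0.05. Called was 1 of the 11, against 5.63% of all genes tested. Kdr, the main VEGF receptor, was the 1 called, at 63.1 CPM in the control group and 28.8 CPM in the LLC group, while Vwf, a clotting protein, measured 22.4 and 30.5 CPM without overlap and was not called. Of 10 B cell markers, 9 of which were listed, only Ighm was tested and called lower, at 71.9 and 26.3 CPM, a gene that circulating B cells and plasma cells both express. Of 8 platelet markers 3 were tested and 1, Pf4, was called lower, at 1.24 and 0.569 CPM. Of 12 fast-fibre genes, all tested, edgeR called 0, with 0 higher and 3 lower at an unadjusted p under 0.05, and DESeq2 called 0.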
